A study of Mus musculus with 26 samples.

Results

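The tissue inhibitors of metalloproteinases and the extracellular proteases of the arterial wall were followed through 26 RNA sequencing libraries of mouse mesenteric arteries. The set held 10 genes, chosen by symbol: the 4 inhibitors Timp1, Timp2, Timp3 and Timp4, the matrix metalloproteinases Mmp2, Mmp3 and Mmp14, and the ADAMTS proteases Adamts1, Adamts4 and Adamts5. All 10 were found among the 57010 genes of the counts table and among the 21031 genes of the normalized table. The choice was made with the values of Timp4 in the Panx1 knockout in view, so the knockout comparison is given here as a description, with no test on these genes.

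The study asked how pannexin 1, a membrane channel that releases ATP, and its phosphorylation sites shape the artery. RNA came from mesenteric arteries of male mice aged 8 weeks. There were 3 libraries of WT mice and 3 of global Panx1 KO mice. Each point-mutant line came with its own controls: Y198F with 3 libraries per group, S205A with 4 per group and Y308F with 3 per group. In the labels, mutants are written +/+ for the mutant allele (Y198F+/+) and their controls -/-, so a control of a point-mutant line carries no mutant allele. The knockout is global and the labels name no Cre driver. The labels describe the controls as littermate or WT animals, and give 3 vascular trees per genotype although each S205A group has 4 libraries. No label says which libraries came from separate animals, so p-values measure the spread between these libraries.

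Matrix metalloproteinases and ADAMTS proteases are zinc enzymes that cut the collagens, proteoglycans and glycoproteins of the extracellular matrix. TIMPs bind the active site of such enzymes and block it, and they differ in range: Timp3 binds to the matrix itself and also inhibits ADAM and ADAMTS enzymes, and Timp2 takes part with Mmp14 in the activation of pro-Mmp2 at the cell surface. In an artery these genes are expressed by smooth muscle cells, endothelial cells and adventitial fibroblasts, and matrix turnover by their products accompanies growth and remodelling of the wall.

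The contact between the families rests on short conserved stretches, which are shown here because they define what makes each gene an inhibitor or a protease. The mature TIMPs begin with a cysteine whose amino end sits on the zinc of the enzyme, followed by a second cysteine after 1 residue. The coding bases below were read from the GRCm39 genome, with those cysteine codons in capitals.
Timp1: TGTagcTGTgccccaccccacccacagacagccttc
Timp2: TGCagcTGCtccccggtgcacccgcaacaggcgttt
Timp3: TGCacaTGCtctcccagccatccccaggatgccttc
Timp4: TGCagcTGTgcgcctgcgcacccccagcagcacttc
They lie at chrX:20737350-20737385 (plus strand, exon 2 of Timp1), chr11:118245803-118245838 (minus strand, exon 1 of Timp2), chr10:86136787-86136822 (plus strand, exon 1 of Timp3) and chr6:115228617-115228652 (minus strand, exon 1 of Timp4). Timp4 shared 25 of 36 of these bases with Timp1 and 25 with Timp2, against 22 with Timp3.

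The proteases carry a motif with 3 histidines that hold the catalytic zinc. Their coding bases are printed with the histidine codons in capitals.
Mmp2: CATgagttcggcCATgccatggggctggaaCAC
Mmp3: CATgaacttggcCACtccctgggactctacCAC
Mmp14: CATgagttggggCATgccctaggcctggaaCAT
Adamts1: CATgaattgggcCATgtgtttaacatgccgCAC
Adamts4: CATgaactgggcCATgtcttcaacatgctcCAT
Adamts5: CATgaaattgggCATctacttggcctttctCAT
In GRCm39 these lie at chr8:93565907-93565939 (Mmp2, exon 8), chr9:7449775-7449807 (Mmp3, exon 5) and chr14:54675084-54675116 (Mmp14, exon 5), all on the plus strand. The 3 ADAMTS stretches each run across 2 exons. Mmp2 and Mmp14 shared 81.8% of the 33 bases, as did Adamts1 and Adamts4, while Adamts5 shared 60.6% with Adamts1 and 57.6% with Adamts4. All of these are protein-coding genes. Adamts1 and Adamts5 are neighbours on chromosome 16, 53.1 kb apart, and Mmp3 lies on the chromosome of Panx1, chromosome 9, at a distance of 7.46 Mb.

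Before the values, 3 features of the libraries need stating. Total counts ran from 14.9 to 23.6 M, where M stands for 1000000. In 9 libraries the library name carries a number beginning with 22 (every Y198F mutant, and 3 of 4 libraries in each S205A group, leaving out control 4 and mutant 1). These 9 held 0.0831% to 0.139% ribosomal RNA counts, against 2.32% to 7.09% in the other 17. The labels do not explain the number, and these are called library series 22 here. Since all Y198F mutants and none of their controls belong to it, genotype and series cannot be told apart in that comparison. The second feature is S205A control 1, whose summed smooth muscle markers (43089 CPM, counts per M library counts) lay above the 20640 to 35900 CPM of the other 25 libraries. Its summed endothelial markers (1257 CPM) lay below their 3326 to 10428 CPM. S205A differences of the 10 genes, and correlations with 4 main marker sums, are given without it as well where it moves them. As a check of the labels, Panx1 had 61 to 96 counts in WT and 11 to 27 in the knockout, while S205A control 1 had 16. All 8 smooth muscle, all 8 endothelial and all 8 fibroblast markers were detected in every group. In tissue of several cell types, fewer cells of a type and less RNA per cell cannot be told apart.

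The inhibitors Timp2 and Timp3 had the highest levels of the 10 genes. Per kilobase of exon, which allows genes to be compared, the median level over 26 libraries was 188 CPM per kilobase for Timp2 and 121 for Timp3. Adamts1, a protease that cuts versican and other proteoglycans, came next at 53.9. Mmp2 (gelatinase A) stood at 20.003, Timp4 at 16.3, Adamts5 at 13.1, and Mmp3 (stromelysin 1) and Mmp14 (the membrane-bound MT1-MMP) at 12.9 each. Timp1 followed at 1.80 and Adamts4 at 0.20. By this length Timp2 exceeded Timp3, Timp3 exceeded Adamts1 and Adamts1 exceeded Mmp2 in 26 of 26 libraries. The order of Timp2 and Timp3 depended on the length used, as given below. Mmp14 exceeded Timp1, and Timp1 exceeded Adamts4, in 26 of 26.

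The middle of that order was less settled. Mmp2 exceeded Timp4 in 18 of 26 libraries, Adamts5 exceeded Mmp3 in 12 and Mmp3 exceeded Mmp14 in 12, and these neighbours were not separated beyond their spread. Timp4 exceeded Adamts5 in 21 of 26, with a median log2 difference of 0.40 against an SD of 0.37. With the length of the longest transcript in place of all exonic bases, Mmp14 moved from rank 8 to rank 4 and Mmp2 from rank 4 to rank 6. Ranks 1 to 3, 9 and 10 of the medians were as before. With that length Timp2 (median 220) and Timp3 (206) were close. Timp3 then had the higher group mean in WT, the knockout, S205A controls, Y308F controls and Y308F (249 against 223). Timp2 had it in Y198F controls, Y198F (227 against 160) and S205A. Within the summed level of the 4 TIMPs per kilobase of all exonic bases, Timp2 held a median of 57.2%, Timp3 37.2%, Timp4 5.01% and Timp1 0.514%.

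**Figure D1:**
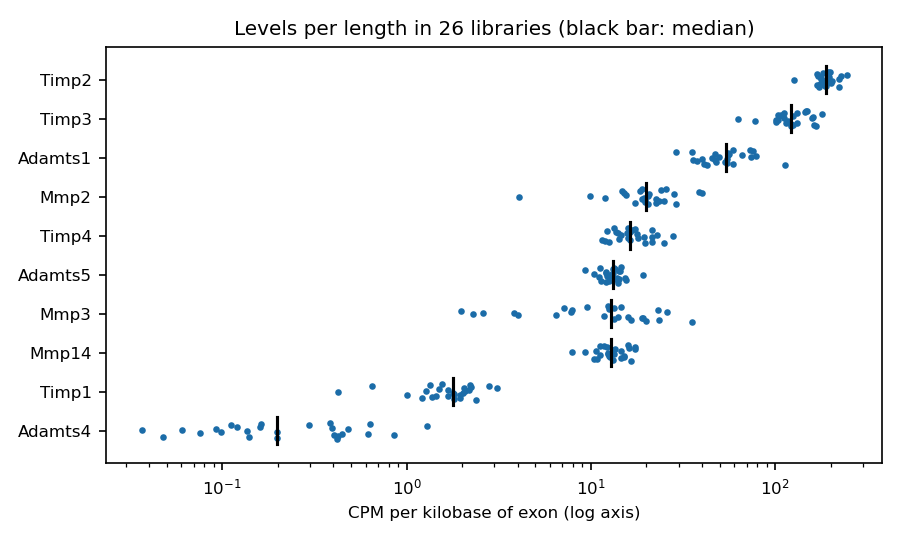
Level of each gene in CPM per kilobase of exon (log axis), 1 point per library (26 libraries), with the median as a black bar. Timp2 (188) and Timp3 (121) lie highest and Adamts4 (0.20) lowest, and the clouds from Mmp2 to Mmp14 overlap.

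Timp4, an inhibitor known mainly from heart, vessels and fat, was lower in the knockout than in WT. In WT arteries it measured 152, 194 and 166 CPM, and in Panx1 KO arteries 97.1, 91.9 and 89.1 CPM. Every knockout library lay below every WT library. The group means were 171 ± 21.4 CPM (SD, n = 3) and 92.7 ± 4.03 CPM (SD, n = 3), so the knockout level was 54.3% of WT. The edgeR log2 fold change was -0.86 (SE 0.12) and ran from -0.94 to -0.76 when each library was left out in turn. As a share of the TIMP total per kilobase, Timp4 took 6.21% ± 0.762 (SD, n = 3) in WT and 3.70% ± 0.247 (SD, n = 3) in the knockout. In the authors' deposited table of this comparison the log2 fold change of Timp4 was -0.87. Timp4 and Timp1 were the 2 of 10 genes whose groups did not overlap, both lower in the knockout, where 10.5% of all 16193 genes tested were lower without overlap and 0.0309% passed an adjusted p of 0.05 in either direction. Because the choice of the set used this comparison, nothing is read from that count.

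The WT level was itself high among the controls. Over the 10 control libraries of the point-mutant lines, Timp4 ran from 94.7 to 217 CPM with a median of 128. Of these, 3 reached the lowest WT value, 6 lay between WT and knockout, and 1 (Y308F control 1) fell within the knockout range. None of the 10 point-mutant libraries, which ran from 104 to 166 CPM, was as low as the highest knockout library. In order of group means, Timp4 stood at 171 CPM in WT, 162 in S205A controls, 152 in Y198F, 130 in Y308F controls, 121 in Y308F, 120 in Y198F controls, 115 in S205A and 92.7 in the knockout. Neighbours from WT down to S205A all had overlapping libraries. The knockout overlapped the Y308F controls but no other group.

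**Figure D2:**
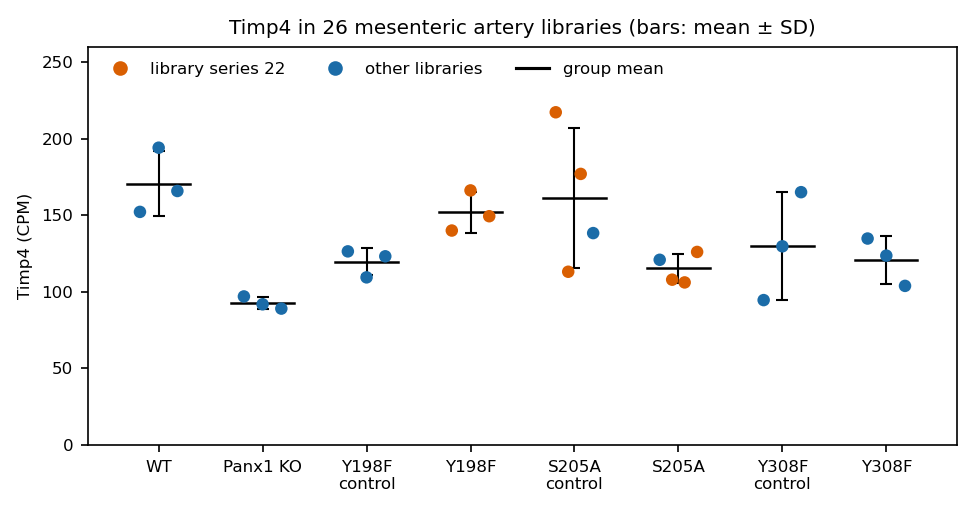
Timp4 in CPM (linear axis from 0) in each of the 26 libraries by group, with group mean and SD. Orange marks library series 22. The 3 knockout libraries lie between 89.1 and 97.1 CPM, and WT between 152 and 194.

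Other values of the WT and knockout libraries are placed beside Timp4. The summed smooth muscle markers (8 genes, none at 0) ran from 21442 to 35900 CPM in WT and from 20640 to 26583 in the knockout, and 0 of 8 had a fitted difference above 0 (median log2 fold change -0.24). Timp4 per 1000 CPM of those markers, a ratio added after the values were seen, was 5.01 to 7.74 in WT and 3.46 to 4.32 in the knockout. Since the knockout values of Timp4 chose the set, nothing is read from the gap between these ranges. On this scale S205A mutants (3.56 to 4.07) lay within the knockout range. Y198F controls (4.25 to 4.69) and Y308F mutants (4.01 to 5.39) overlapped it. Adipocyte markers (8 genes, none at 0) summed to 531 to 3047 CPM in WT and 194 to 954 in the knockout, with 0 of 8 fitted above 0 (median -1.46). Cardiac and skeletal muscle markers (8 genes, with Myh4 at 0 in both groups and Nppa also in the knockout) summed to 24.2 to 39.4 CPM in WT and 16.0 to 21.2 in the knockout, without overlap. Of the 5 tested, 1 was fitted above 0 (median -0.80). As descriptions over 26 libraries, Timp4 correlated with the cardiac and skeletal muscle sum at 0.43 (0.69 outside series 22). It correlated with the adipocyte sum at 0.08 (0.18 without S205A control 1 and 0.16 outside series 22). Erythroid markers (5 genes, none at 0) summed to 1.66 to 608 CPM in WT and 18.7 to 35.3 in the knockout, with 0 of 5 fitted above 0 (median -2.88). Timp4 correlated with the erythroid sum at -0.07 (-0.18 outside series 22). Other lists lay mostly above 0 in the knockout. Macrophage markers (8 genes, none at 0) summed to 52.3 to 139 CPM in WT and 80.7 to 142 in the knockout. Of these, 7 of 8 were fitted above 0 (median 0.48). Of Schwann and neuronal markers, 6 of 7 tested were fitted above 0 (median 0.08). Ribosomal RNA counts made up 4.12% to 5.84% in WT and 2.32% to 3.09% in the knockout. The TMM scaling factors ran from 0.913 to 0.976 in WT and from 1.03 to 1.08 in the knockout, so neither measure overlapped. The part of other cell types and of these library measures in the Timp4 difference was not tested.

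Timp4 sits inside another gene. It occupies chr6:115187773-115229336 (GRCm39, minus strand) within Syn2 on the opposite strand, and 1142 of its exonic bases are shared with Syn2. Whether counting used the strand is not stated, so reads of the shared bases cannot be assigned. Syn2, a synaptic vesicle gene, measured 16.3, 18.6 and 13.9 CPM in WT and 11.8, 10.1 and 10.1 CPM in the knockout, with a log2 fold change of -0.59 (SE 0.16). Syn2 was thus lower in the same libraries.

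The 250 bases before the annotated start of Timp4 are printed because its level is the one the knockout comparison turns on. They come from RefSeq on GRCm38.p6, chr6:115252206-115252455, minus strand.
Timp4 promoter: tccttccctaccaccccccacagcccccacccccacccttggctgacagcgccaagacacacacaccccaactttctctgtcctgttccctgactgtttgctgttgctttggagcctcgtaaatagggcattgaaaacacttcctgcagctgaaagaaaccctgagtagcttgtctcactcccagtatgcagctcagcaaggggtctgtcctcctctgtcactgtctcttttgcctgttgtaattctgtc
In this entry and the 50 bases after the start, 4 motifs were searched on both strands and none was found. The first was AP-1, spelled TGANTCA, which occurred in 7.81% of 32851 promoters of the same length. The next was the TATA box, spelled TATAAA, found in 13.6% of them. The Sp1 GC box, spelled GGGCGG, was found in 35.7% and the E-box, spelled CACGTG, in 7.15%. Of the 10 genes, 7 had a promoter entry.

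Across the other comparisons Timp4 did not pass the test. In Y198F it measured 140, 166 and 149 CPM, above all Y198F controls at 126, 110 and 123 CPM. The log2 fold change was 0.34 (SE 0.11, edgeR quasi-likelihood test, adjusted p = 0.0535). DESeq2 gave an adjusted p of 0.0304 and limma voom 0.0432 for the same libraries, and against the 3 S205A controls of series 22 the log2 fold change was -0.16. Without S205A control 1, the library at 217 CPM, that value was 0.064. In S205A it measured 121, 108, 106 and 126 CPM against 217, 113, 177 and 138 CPM in controls, a log2 fold change of -0.49 (SE 0.19), or -0.31 without S205A control 1. In Y308F it measured 135, 124 and 104 CPM against 94.7, 130 and 165 CPM, a log2 fold change of -0.09 (SE 0.20). In Y198F, 8 of 8 adipocyte markers (none at 0) were fitted above 0 (median 1.25, 0 called), with sums of 220 to 2321 CPM against 396 to 522 in controls. Of 8 smooth muscle markers (none at 0) 5 were fitted above 0 (median 0.27, 2 called higher and 1 lower), with sums of 24082 to 32546 CPM against 25378 to 29775. In S205A, 0 of 8 adipocyte markers (median -0.51) and 1 of 8 smooth muscle markers (median -0.10) were fitted above 0, with 0 called. Without S205A control 1, 6 of 8 smooth muscle markers were fitted above 0 (median 0.05). The part of these markers in the Timp4 differences of Y198F and S205A was not tested. Per 1000 CPM of smooth muscle markers, a ratio added after the values were seen, S205A mutants (3.56 to 4.07) lay below all their controls (4.77 to 5.32). On that scale Y198F mutants (4.75 to 6.21) lay above all of theirs (4.25 to 4.69), and Y308F overlapped.

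Timp4 followed the smooth muscle markers across libraries. Its log2 CPM correlated with their log2 sum at r = 0.66 over 26 libraries, at 0.57 without S205A control 1 and at 0.63 over the 17 libraries outside series 22. The genes most like Timp4 over 26 libraries, among 12911 genes, were Csrp1 (r = 0.81), BC051019 (0.81), Lncbate1 (0.78), Cdc42se1 (0.77) and Des (0.76). Srgap2 (-0.74), Arhgap20 (-0.74) and Cdk14 (-0.73) ran most opposite. With group means removed the 5 highest were Inka2 (0.87), Kcne4 (0.87), Stom (0.87), Tmem38b (0.86) and Neurl1b (0.86). Csrp1 and BC051019 were the 2 of the first 5 that were again among the 5 highest outside series 22. All points share library depth and tissue makeup.

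Among the other inhibitors, Timp2 measured 996, 776 and 827 CPM in WT and 844, 754 and 802 in the knockout, and was the steadiest of the 10 genes, with a coefficient of variation of 12.2% over 26 libraries. Its lowest value was 562 CPM in S205A control 1 and its highest 1091 in Y308F control 1. Its log2 fold changes were -0.09 in the knockout, 0.04 in Y198F, 0.16 in S205A (0.025 without S205A control 1) and -0.07 in Y308F. Timp2 shares 332 exonic bases with Cep295nl.

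Timp3, the matrix-bound inhibitor, measured 988, 1349 and 1016 CPM in WT and 1327, 989 and 927 in the knockout, with overlapping groups. In Y198F it measured 633, 819 and 847 CPM against 1073, 820 and 956 in controls, a fitted log2 difference of -0.32 (SE 0.15), for which edgeR gave an adjusted p of 0.179. That difference ran from -0.41 to -0.20 when each library was left out in turn. In S205A Timp3 had a log2 fold change of -0.17 (SE 0.27), and -0.39 without S205A control 1. In Y308F it measured 1175, 1214 and 1198 CPM against 1470, 906 and 1074. Its range over all libraries was 513 to 1470 CPM. Timp3 lies inside Syn3 on the opposite strand and shares 1734 exonic bases with it.

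Timp1, an inhibitor known to be induced by growth factors and cytokines, was scarce. It measured 4.65, 3.55 and 3.81 CPM in WT and 2.38, 2.69 and 2.82 CPM in the knockout, from 64 to 90 and 45 to 57 counts. The knockout libraries lay below all WT libraries, with a log2 fold change of -0.58 (SE 0.27). They did not stand apart from other controls, which ran from 0.830 to 5.51 CPM. Its log2 fold change was 0.26 (SE 0.34) in Y198F, and 0.024 without Y198F control 3. In S205A it was 0.48 (SE 0.48), and 0.17 without S205A control 1. In Y308F it was -0.15 (SE 0.49).

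**Figure D3:**
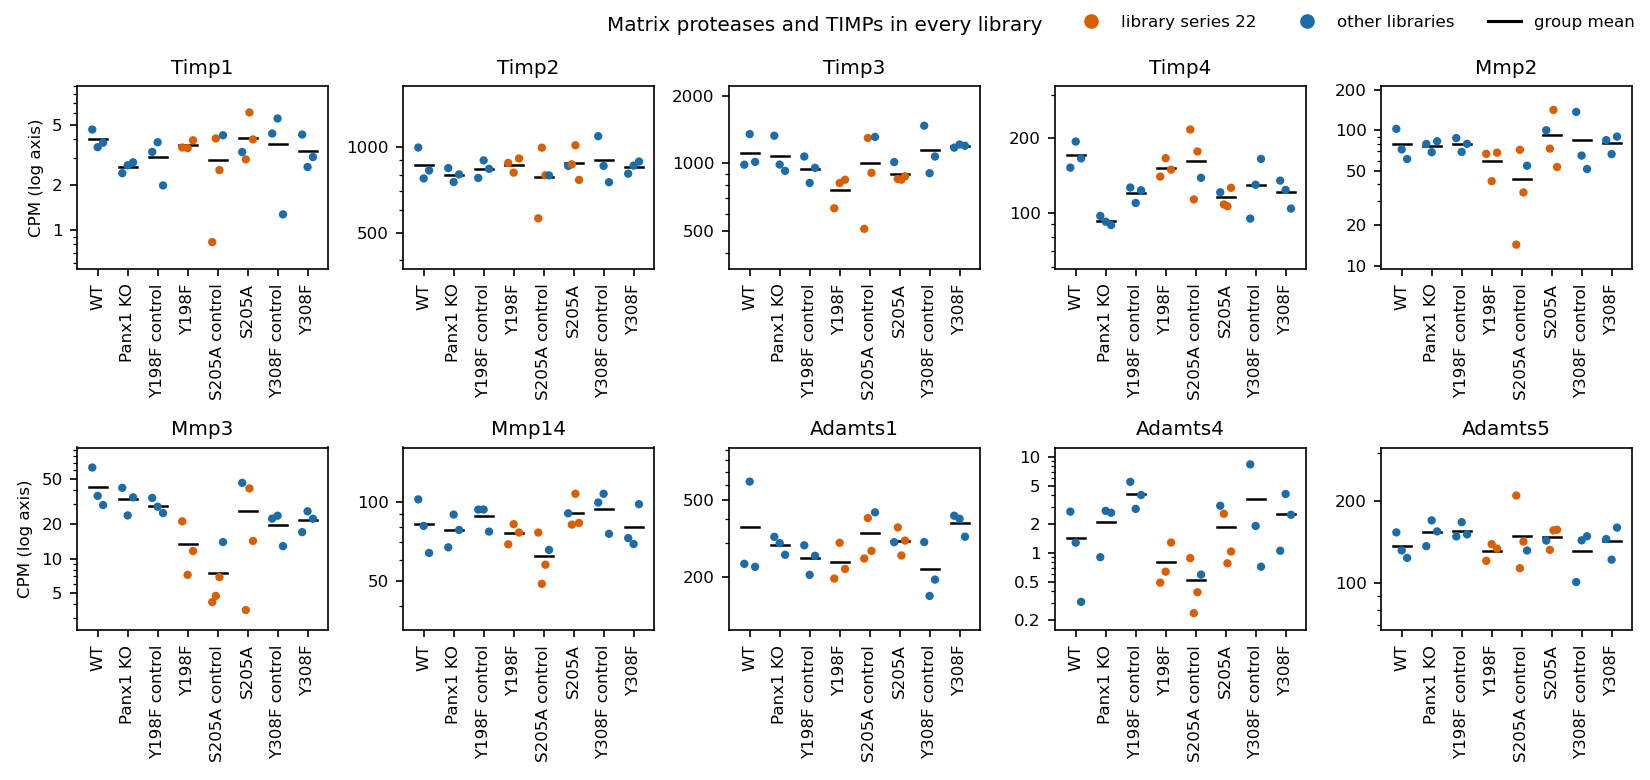
The 10 genes in CPM (log axes, each with its own range) in every library by group, with group means as bars. Orange marks library series 22. Knockout Timp4 lies below WT without overlap, and Mmp3 and Adamts4 differ 17.9-fold and 35.4-fold between their lowest and highest libraries.

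Among the metalloproteinases, Mmp3 varied most. This enzyme cuts proteoglycans and fibronectin and activates other pro-MMPs. It measured 63.4, 35.7 and 29.6 CPM in WT and 42.0, 24.02 and 34.7 in the knockout. It measured 34.2, 28.6 and 25.2 CPM in Y198F controls, and 21.3, 7.21 and 11.7 in Y198F, all lower. The Y198F log2 fold change was -1.14 with an SE of 0.39, at an edgeR adjusted p of 0.118. The adjusted p was 0.0025 with DESeq2, 0.012 with limma voom, 0.034 by edgeR with no filter and 0.31 by edgeR with all 8 groups in one fit. Against the 3 S205A controls of series 22 it was 1.35, the opposite sign, and 1.21 without S205A control 1. In the S205A line Mmp3 measured 4.15, 4.71, 6.88 and 14.0 CPM in controls and 46.4, 3.53, 41.5 and 14.3 CPM in mutants. Mutants thus held both the lowest value and the highest, and 3 of 4 exceeded all controls (log2 fold change 1.83, SE 0.72, edgeR adjusted p = 1.00). Within series 22 the difference was 1.92 (SE 0.82), and without S205A control 1 it was 1.63. In Y308F it was 0.16 (SE 0.25). With the series as a term beside the groups, only the S205A line holds libraries of both kinds (6 in series 22 and 2 outside), so the term rests on that line. Mmp3 was lower in series 22 by this term, at -1.32 on the log2 scale with an SE of 0.53 (edgeR adjusted p = 0.121).

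Mmp3 ran with the fibroblast markers. Their sum (8 genes, none at 0) was 1030 to 1607 CPM in S205A controls and 1521 to 4558 in S205A, 2437 to 3026 in Y198F controls and 1415 to 2278 in Y198F. In S205A, 8 of 8 were fitted above 0 (median 1.29, none called), and in Y198F 1 of 8 (median -0.88, 1 called lower). The correlation of Mmp3 with the sum was 0.89 over 26 libraries, 0.87 without S205A control 1 and 0.75 outside series 22. The part of fibroblast content in these differences was not tested. With group means removed, Mmp3 was most like Itgbl1 (r = 0.95).

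The 250 bases before the start of Mmp3 are printed because Mmp3 was the most variable of the 10 genes after Adamts4. They come from RefSeq on GRCm38.p6, chr9:7445572-7445821, plus strand, with matches to AP-1 and the TATA box in capitals.
Mmp3 promoter: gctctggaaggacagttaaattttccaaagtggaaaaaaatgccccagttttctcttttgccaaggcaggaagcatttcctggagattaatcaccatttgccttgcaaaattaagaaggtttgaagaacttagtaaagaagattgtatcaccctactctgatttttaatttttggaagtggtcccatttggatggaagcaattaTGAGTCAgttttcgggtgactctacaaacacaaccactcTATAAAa
The AP-1 match (TGAGTCA) began at -46 and the TATA match at -7 from the annotated start. Among the 7 promoter entries, only Mmp3 held an AP-1 match, while Adamts1 also held a TATA match. A match is a description of letters and not a binding site.

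Mmp2, which degrades gelatin and type IV collagen, measured 103, 72.4 and 61.6 CPM in WT and 79.4, 69.1 and 83.2 in the knockout (log2 fold change -0.01, SE 0.18). In Y198F it measured 67.2, 42.3 and 68.5 CPM against 87.8, 69.4 and 79.6, without overlap. That log2 fold change was -0.42 with an SE of 0.18, at an edgeR adjusted p of 0.163. It was -0.23 without Y198F mutant 2, and 0.55, the opposite sign, against the 3 S205A controls of series 22. That value was 0.15 without S205A control 1. In S205A it measured 100, 73.4, 142 and 53.8 CPM against 14.4, 71.9, 34.9 and 54.9, and 3 of 4 mutants exceeded all controls. The fitted difference of 1.07 on the log2 scale (SE 0.46, edgeR adjusted p = 1.00) was 0.77 without S205A control 1, the library at 14.4 CPM. In Y308F the groups overlapped (log2 fold change -0.06, SE 0.36). Mmp2 correlated with the fibroblast sum at 0.75, and at 0.70 without S205A control 1.

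Mmp14, the membrane protease that activates pro-Mmp2, measured 90.3, 81.8, 107 and 82.9 CPM in S205A and 76.3, 48.7, 57.5 and 65.5 CPM in S205A controls. Every S205A mutant exceeded every control. The log2 fold change was 0.55 (SE 0.16), with an unadjusted p of 0.0058 and an edgeR adjusted p of 1.00. It was 0.58 (SE 0.19) within series 22 and 0.66 (SE 0.15) without S205A control 1. Mmp14 correlated with the fibroblast sum at 0.65, and at 0.70 without S205A control 1. In S205A 8 of 8 fibroblast markers (median 1.29), 8 of 8 macrophage markers (median 0.59) and 6 of 7 tested Schwann and neuronal markers (median 0.94) were fitted above 0, with 0 called. Macrophage sums (none at 0) were 12.0 to 84.0 CPM against 15.2 to 60.1 in controls, and Schwann and neuronal sums 123 to 238 CPM (Th at 0) against 111 to 128. The part of these cell types in the Mmp14 difference was not tested. In Y308F the groups overlapped, at 72.6, 69.0 and 97.8 CPM against 99.2, 107 and 75.4 (log2 fold change -0.22, SE 0.18). The S205A and Y308F effects on Mmp14 differed by 0.74 (SE 0.25) on the log2 scale in the interaction model (0.87 without S205A control 1), with an unadjusted p of 0.0086 and an edgeR adjusted p of 0.9999. In WT and knockout Mmp14 overlapped (log2 fold change -0.05, SE 0.17).

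Among the ADAMTS proteases, Adamts4, an aggrecanase, gave the only call. It measured 0.489, 0.636 and 1.28 CPM in Y198F and 5.49, 2.87 and 4.00 CPM in Y198F controls, that is 9 to 24 counts against 51 to 98. It fell by 2.36 on the log2 scale (SE 0.47, edgeR quasi-likelihood test, adjusted p = 0.0070), and the control mean was 5.14 times the mutant mean. In the same comparison 0 of 8 macrophage markers (median -0.60), 1 of 7 tested Schwann and neuronal markers (median -0.82, 2 called lower) and 1 of 8 fibroblast markers (median -0.88) were fitted above 0. None of the macrophage markers was at 0, with sums of 12.4 to 63.6 CPM in Y198F and 26.3 to 105 in controls. The part of these cell types in the Adamts4 difference was not tested. Leaving out each library in turn kept its adjusted p between 0.0060 and 0.0423. The call was tied to the choice of controls. Against the 3 S205A controls of series 22, at 0.235 to 0.881 CPM, the log2 fold change was 0.66 (SE 0.79), or 1.34 without S205A control 1, and with the series as a term it was -1.61 (SE 1.14). These fits each called none of the 10 genes and 0% of all genes. With all 8 groups in one fit, where 4.93% of genes were called, the edgeR adjusted p of Adamts4 was 0.0854. In the authors' deposited table for Y198F its log2 fold change was 0.59. That table matched values computed against the S205A controls to within 1.6e-04 over all genes, and not the Y198F controls.

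In S205A, Adamts4 measured 3.10, 2.55, 0.777 and 1.03 CPM against 0.881, 0.235, 0.389 and 0.593 in controls, a fitted log2 difference of 1.81 (SE 0.63), for which edgeR gave an adjusted p of 1.00. Without S205A control 1 the difference was 2.18. In Y308F it measured 1.05, 4.10 and 2.49 CPM against 8.34, 1.91 and 0.716 in controls, and the fitted difference was -0.52 (SE 0.88), or 0.97 without Y308F control 1. It measured 2.69, 1.28 and 0.309 CPM in WT and 0.900, 2.74 and 2.62 in the knockout, and these groups overlapped (log2 fold change 0.57, SE 0.71). Without WT library 3 that value was 0.097, and without WT library 1 it was 1.41. The lowest of the 26 libraries held 4 counts.

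Adamts1 measured 234, 621 and 225 CPM in WT and 322, 299 and 260 in the knockout. The WT library at 621 CPM was the highest of all 26. In Y308F it measured 414, 399 and 323 CPM against 303, 160 and 194 in controls, and every mutant exceeded every control. The log2 fold change was 0.80 (SE 0.24), with an unadjusted p of 0.0091 and an edgeR adjusted p of 0.941, and it ran from 0.62 to 1.12 when each library was left out in turn. In the same comparison 0 of 7 tested Schwann and neuronal markers (median -0.45) and 1 of 8 adipocyte markers (median -0.60) were fitted above 0, with 0 called. So were 0 of 6 mesothelial (median -2.08), 0 of 4 tested lymphoid (median -0.74) and 1 of 8 macrophage markers (median -0.19). Of the fibroblast markers, 4 of 8 were above 0 (median 0.01), and 0 of all these were called. Schwann and neuronal sums were 161 to 181 CPM in Y308F, with Th and Dbh at 0, and 181 to 321 in controls, with Th at 0. Over 26 libraries Adamts1 correlated with that sum at -0.41 (-0.66 outside series 22), a description. The part of these cell types in the Adamts1 difference was not tested. In S205A Adamts1 overlapped (302, 360, 258 and 308.2 against 249, 403, 272 and 431 CPM), with a log2 fold change of -0.14, and -0.26 without S205A control 1. The S205A and Y308F effects on it differed by -0.97 (SE 0.33), or -1.08 without S205A control 1, with an unadjusted p of 0.010 and an edgeR adjusted p of 0.9999. Its log2 fold change was -0.08 (SE 0.17) in Y198F.

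Adamts5, the other main aggrecanase, held within 101 to 210 CPM over all libraries. It measured 121, 139 and 134 CPM in Y198F against 148, 167 and 151 in controls, lower in every library (log2 fold change -0.25, SE 0.10, edgeR adjusted p = 0.127). In Y198F 7 of 8 endothelial markers were fitted above 0 (median 0.18), and 2 were called higher, where 9.55% of all genes were. Their sums were 5279 to 5688 CPM against 4053 to 5147 in controls, without overlap. Adamts5 correlated with that sum at -0.81 over 26 libraries. The part of endothelial content in the Adamts5 difference was not tested. In the knockout Adamts5 measured 137, 170 and 155 CPM against 153, 132 and 124 in WT. Its S205A and Y308F log2 fold changes were -0.02 (SE 0.18) and 0.13 (SE 0.17), and the S205A value was 0.19 without S205A control 1.

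**Figure D4:**
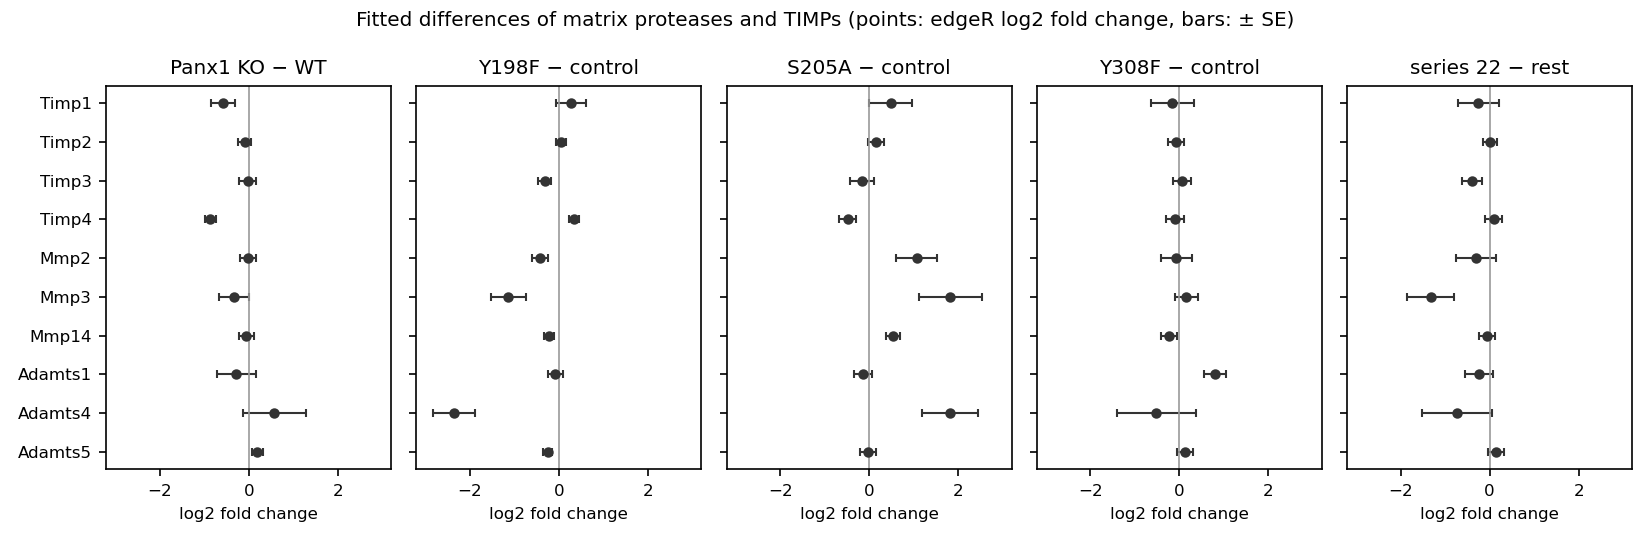
Fitted log2 fold change (edgeR) of each gene with its SE in the 4 comparisons and for library series 22 against the rest, a term that rests on the S205A line. Adamts4 in Y198F (-2.36) is the only one past an adjusted p of 0.05 among the tested comparisons, and the knockout panel carries no test.

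Counted over the set, Y198F called 1 of 10 genes, where 15.0% of all 16050 genes tested were called (9.55% higher and 5.48% lower), so the share is near the background. DESeq2 and limma voom each called 3 of 10, against 17.8% and 17.7% of all genes. The groups did not overlap for 5 genes, of which 4 (Mmp2, Mmp3, Adamts4, Adamts5) were lower and 1 (Timp4) higher. Over all genes 15.1% were lower and 19.0% higher without overlap. The median log2 fold change of the 10 genes was -0.24, against -0.0028 for all genes. In S205A edgeR called 0 of 10, against 0% of 15709 genes. An unadjusted p under 0.05 was met by 5 of 10 genes (Timp4, Mmp2, Mmp3, Mmp14 and Adamts4), against 2.87% of all genes, and the median was 0.32 against -0.01. Without S205A control 1 the unadjusted edgeR p was 0.0823 for Timp4, 0.0558 for Mmp2 and 0.0915 for Mmp3. There 3 of 10 (Timp3, Mmp14 and Adamts4) were under 0.05, against 4.75% of all genes, and the median of the 10 was 0.18. Mmp14 was the 1 gene of 10 without overlap, where 1.16% of all genes were higher without overlap. DESeq2 called 38 genes there (0.242%) and none of the 10, and limma voom called 0. In Y308F edgeR called 0 of 10, against 0% of 16037 genes. Only Adamts1 had an unadjusted p under 0.05, against 4.40% of all genes, and only it was higher without overlap, against 4.91%. Both DESeq2 and limma voom called 0. The interaction of S205A and Y308F called 0 of 10 and 0% of 17602 genes, while 3 of 10 (Mmp14, Adamts1 and Adamts4) had an unadjusted p under 0.05, against 3.49% of all genes. The interaction value of Adamts4 was 2.30 (SE 1.07, edgeR adjusted p = 0.9999), and 0.86 without Y308F control 1. The series term called 0 of 10 where 11.7% of 18715 genes were called.

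Related genes of the same system were counted from lists, where 9.55% of all genes were called higher and 5.48% lower in Y198F. Of 18 other matrix metalloproteinases, 8 were tested. In Y198F, Mmp23 (log2 fold change 0.49) rose and Mmp16 (-1.06) fell. Of 21 other ADAMTS and ADAMTS-like genes, 18 were tested and 3 rose in Y198F: Adamtsl4 (0.59), Adamtsl5 (0.50) and Adamts10 (0.45). The same 3 were higher in library series 22 (0.81, 0.98 and 0.51), where 7.57% of all genes were called higher. Among 8 ADAM sheddases, Adam15 (0.61) and Adam33 (0.50) rose in Y198F, while Adam10 (-0.41) and Adam19 (-0.58) fell. Among activators and other inhibitors, 12 were tested. The urokinase receptor gene Plaur (0.86) and the pro-MMP convertase gene Furin (0.38) rose, and Pcsk5 (-0.46) fell. None of these lists had a call in Y198F against the S205A controls of series 22 or with the series as a term, where 0 genes in all were called.

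Signals and substrates were read in the same way. In Y198F Tgfb1 (0.53) and the TNF receptor gene Tnfrsf1a (0.53) rose and Tgfbr1 (-0.38) fell. Tnfrsf1a (0.44) and Tgfbr1 (-0.48) were also called in the same directions for library series 22. None of 12 tested matrix substrates was called in Y198F. In S205A no gene of any list was called. There 11 of 12 tested substrates, which include collagens, elastin and proteoglycans, were fitted above 0 (median 0.93), as were 14 of 15 immediate early genes (median 0.85), against a median of -0.01 over all genes. All 8 other metalloproteinases tested were fitted above 0 there (median 0.32), and 3 of 13 clock genes (median -0.88). The fibroblast, macrophage and Schwann markers given above for S205A lay mostly above 0 in the same comparison, and their part in these lists was not tested. Dcn, Lum and Col1a1 stand in both the substrate list and the fibroblast list, so these lists are not independent. Without S205A control 1 the medians were 0.75 for the substrates, 0.82 for the immediate early genes, 0.32 for the other metalloproteinases (7 of 8 above 0), -1.02 for the clock genes and 1.17 for the fibroblast markers. In Y308F, 14 of 15 immediate early genes were fitted above 0 (median 0.53) and 7 of 13 substrates (median 0.02), with 0 called. There 1 of 8 other metalloproteinases was fitted above 0 (median -0.34) and 8 of 13 clock genes (median 0.34). In the knockout, 3 of 12 substrates (median -0.15) and 2 of 8 other metalloproteinases (median -0.09) were fitted above 0, against a median of 0.01 over all genes. Of 13 clock genes tested in Y198F, 4 were called higher (Nr1d1 at 1.92, Dbp at 4.10, Tef at 1.87 and Nr1d2 at 1.19) and 1 lower (Clock at -0.74), with a list median of 1.69. Against the 3 S205A controls of series 22 none was called and the median was -0.45, and for library series 22 itself the median was 0.93. Adam19, Tef and Nr1d2 were named after their values were seen. The part of the clock genes in the Y198F differences above was not tested.

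Across libraries some of the genes ran with cell-type markers, while Adamts1 stood between -0.22 and 0.36 with the 4 sums compared. Without S205A control 1 that range was -0.29 to 0.42. Timp2 correlated with the endothelial sum at 0.76 and Timp3 at 0.68, and without S205A control 1 at 0.55 and 0.47. Adamts5 ran opposite to the endothelial sum at -0.81, or -0.72 without that library and -0.68 outside series 22. Timp2 and Mmp2 correlated at 0.80 (0.64 without S205A control 1), Mmp14 and Adamts4 at 0.65 (0.65), and Timp3 and Adamts1 at 0.58 (0.63). Timp2 and Timp4 ran opposite at -0.50, which was -0.31 without S205A control 1. That library held the lowest Timp1, Timp2, Timp3 and Mmp2 of all 26 and the highest Timp4 and Adamts5. These are descriptions over libraries that share tissue makeup and depth.

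**Figure D5:**
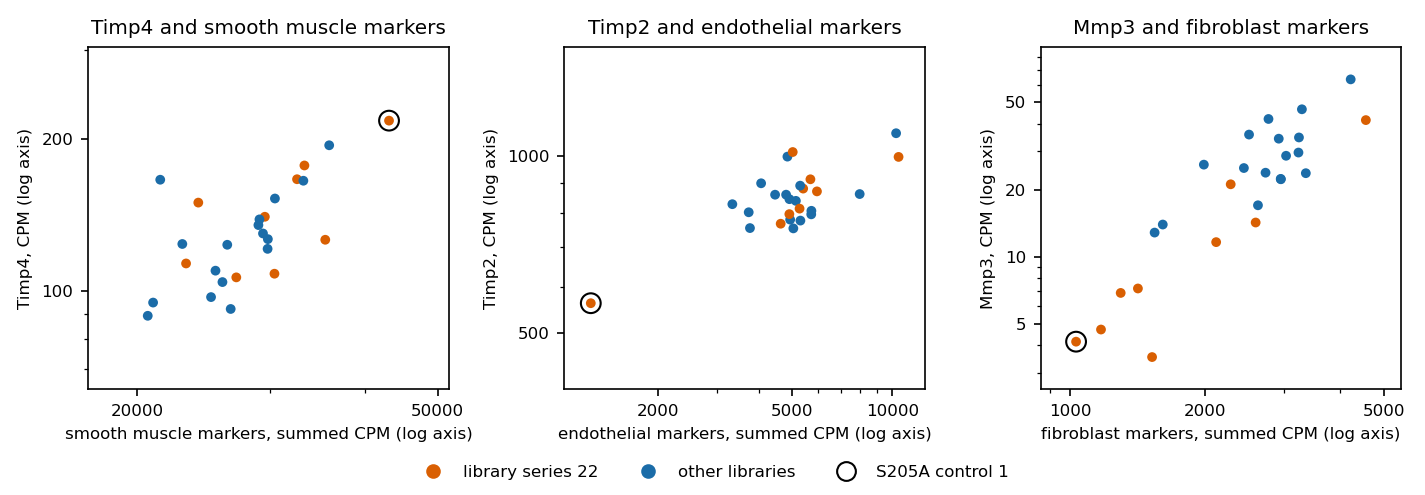
Timp4, Timp2 and Mmp3 (CPM) against the summed CPM of 8 smooth muscle, 8 endothelial and 8 fibroblast markers, 1 point per library, on log axes. The circle marks S205A control 1, which lies apart in the first 2 panels, and r over 26 libraries is 0.66, 0.76 and 0.89.

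The nearest genes to the other members were found with group means removed. Timp1 was most like Dab2 (r = 0.83), Timp2 like Cxcl16 (0.91), Timp3 like Jcad (0.94), Mmp2 like Creb3l1 (0.89), Mmp14 like Boc (0.81), Adamts1 like Rybp (0.83) and Adamts5 like Rccd1 (0.93). Adamts4 lay below the level set for this search.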

How the data were processed

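Per the labels' protocols, the authors aligned 150-base read pairs to GRCm39 with STAR 2.7.9a, counted genes with featureCounts of Rsubread 2.20.0 and tested them with DESeq2 1.46.0. The annotation and strand setting are not given in the sources used here. Per the file headers and values, the deposited table of counts is in whole numbers and was not normalized. The deposited normalized signal equals those counts divided by a factor per library. The authors' comparison tables hold a log2 fold change, its error, a test score and p-values per gene, and are quoted only as the authors' deposited tables.

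Counts were fitted over all genes with edgeR 4.0.16 in R 4.3.3 (TMM, filterByExpr, robust quasi-likelihood test, only the groups compared), with Benjamini-Hochberg adjusted p-values and a threshold of 0.05. SE was derived from the test statistic. CPM was normalized over 26 libraries, and log2 CPM for correlations used a prior count of 2 and genes with a mean of at least 1. GENCODE vM39 gave positions and exon lengths. The tests were checked on simulated data. Alternatives were DESeq2 1.42.0, limma 3.58.1 voom, other size factors, no filter on low counts, a single fit of 8 groups, a block for replicate number, library series as a term or restriction, and leaving out libraries.

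The 10 genes and the gene lists were chosen with earlier results of these data known. Named besides them were genes most like Timp4 (5 highest and 3 lowest r, 5 with group means removed), the 1 most like each other member, and up to 3 called genes per list and comparison.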

Additional observations from a re-analysis of the deposited data

Results flagged for a closer look

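Timp4 lay on opposite sides of the controls in 2 lines. Every Y198F library lay above every Y198F control (log2 fold change 0.34, edgeR adjusted p = 0.0535), while every knockout library lay below every WT library (log2 fold change -0.86). Against the 3 S205A controls of series 22 the Y198F value was -0.16, and without S205A control 1 it was 0.064. Adipocyte markers were fitted above 0 in Y198F (8 of 8, median 1.25) and below 0 in the knockout (0 of 8 above 0, median -1.46), and their part was not tested. Their sums overlapped in both comparisons (220 to 2321 CPM in Y198F against 396 to 522, and 194 to 954 in the knockout against 531 to 3047). The top sums came from Y198F mutant 3 (2321) and WT library 3 (3047), and the next in those groups were 574 and 667 CPM. Timp4 correlated with the adipocyte sum at 0.08 over 26 libraries. The difference between the 2 effects on Timp4 was not tested, since the knockout values chose the set. All 3 Y198F libraries belong to library series 22, and no knockout or WT library does. In the 2 groups of 4 libraries, no gene had a single library far enough from the others to stand out by Dixon's test (20 tests). With 4 libraries per group that test has little power, so nothing is read from its result. The groups of 3 libraries were not tested.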

How the results depend on the processing

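With the labelled controls Y198F called 1 of the 10 genes and 2411 genes in all. The 10 genes gave 3 calls with DESeq2 (Timp4, Mmp3, Adamts4), 3 with limma voom, 3 with no filter (Mmp2, Mmp3, Adamts4) and 0 in the fit of all 8 groups, where 922 genes were called. Against the S205A controls of series 22, and with the series as a term, 0 genes and 0 of the 10 were called. Leaving out each library gave 1 to 2 of the 10 and 908 to 2128 genes, the lowest without Y198F control 3. Against the S205A controls of series 22 the log2 fold change turned to -0.16 for Timp4, 0.55 for Mmp2, 1.35 for Mmp3, 0.31 for Mmp14 and 0.66 for Adamts4. Without S205A control 1 that comparison called 0 genes and 0 of the 10, and gave -0.047 for Timp2, 0.064 for Timp4, 0.15 for Mmp2, 1.21 for Mmp3, 0.51 for Mmp14, 1.34 for Adamts4 and 0.037 for Adamts5. With the series as a term it turned to 0.080 for Timp3, 0.19 for Mmp3 and 0.17 for Adamts1. In S205A DESeq2 called 38 genes in all, and leaving out libraries gave 0 to 1. Adamts1 turned to 0.0075 within series 22 and Adamts5 to 0.075 with limma voom. In Y308F no filter gave 7 genes and leaving out libraries 0 to 1, while limma voom turned Mmp2 to 0.18 and Adamts4 to 0.27. Knockout calls over all genes (5) were 153 with DESeq2, 3 with limma voom and 243 with no filter, and 1 to 5 with libraries left out. The series term called 2189 genes, 902 in the S205A line alone and 282 to 2404 with libraries left out, of the 10 genes 0 to 1 (Mmp3, without S205A mutant 3). With no filter its Timp2 value was -0.011. The interaction called 13 genes with DESeq2 and 1 with no filter. Replicate numbers were not taken to pair the samples, since no comparison had every pair's correlation over 0.1. These ran from -0.09 to 0.14 in Y198F and from -0.42 to 0.22 in S205A. In Y308F they ran from -0.27 to 0.13, and in the knockout from -0.15 to 0.43. So few pairs cannot exclude pairing. A replicate block gave 2 of the 10 in Y198F and 18 genes in the knockout, and turned Adamts5 in S205A to 0.017 and, in Y308F, Timp1 to 0.020, Mmp2 to 0.055 and Adamts4 to 0.078. Values near 0 also changed sign with libraries left out. In Y198F Timp2 ranged from -0.0060 to 0.094 and Adamts1 from -0.28 to 0.043, and in S205A Adamts5 from -0.14 to 0.19. In Y308F Timp1 ranged from -0.56 to 0.23, Timp2 from -0.18 to 0.10, Timp3 from -0.081 to 0.29, Timp4 from -0.27 to 0.12, Mmp2 from -0.31 to 0.48, Mmp3 from -0.068 to 0.31, Adamts4 from -1.02 to 0.97 and Adamts5 from -0.021 to 0.25. For the series term Timp1 ranged from -0.81 to 0.39, Timp2 from -0.093 to 0.094, Timp4 from -0.10 to 0.28, Mmp14 from -0.15 to 0.011 and Adamts1 from -0.49 to 0.026, and for the interaction Adamts5 from -0.29 to 0.045. The causes were not tested. Adamts4, with 4 to 181 counts per library, and Timp1, with 16 to 107, are the least precise values. The correlations, list medians and series 22 comparison without S205A control 1 were chosen after seeing the data.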
